A study of Saccharomyces cerevisiae with 6 samples.

Results

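The levels of extended mRNAs were compared between a pool of Saccharomyces cerevisiae DAmP strains carrying a deletion of NAM7 and the same kind of pool carrying a deletion of YEL068C. All genes with a named probe and a value on each of the 4 arrays of these pools were taken, 462 of the 671 genes that had a value on at least 1 of the series' 6 arrays. The choice of genes used only whether a value was present and not the size of it.

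In a DAmP strain, a resistance cassette placed after the stop codon gives the mRNA of 1 gene an extended 3′ end, and the cassette carries a barcode that names the strain. Each pool was made with the GIM procedure, a mass mating in which the DAmP strains are crossed with a deletion strain and haploid cells with both alleles are selected. NAM7 (also UPF1), NMD2 (also UPF2) or YEL068C was deleted in the 3 pools, so every strain of every pool carries a DAmP allele and a deletion. All strains were haploid derivatives of BY4742/BY4741, standard laboratory strains, and grew for 18 generations in G418 and nurseothricin, which select the DAmP allele and the deletion. RNA was reverse transcribed with an oligonucleotide matching the DAmP extension and its barcodes were labelled with Cy3, while barcodes of genomic DNA from another aliquot of the same cells were labelled with Cy5. Values are log2 ratios of RNA to DNA signal for each barcode, relative to the array median. A value therefore describes the extended mRNA per strain present and not the natural transcript.

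Each pool was read on 2 arrays that the series text calls technical replicates begun from the raw cells, and the text describes 1 pool per deletion. The fit behind the p-values takes out what arrays of the same number share across pools. The p-values thus measure the remaining spread between arrays, and not that between crosses. Dyes were not swapped, so a dye effect on a barcode is shared by all arrays.

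Nonsense-mediated decay removes mRNAs whose translation stops in an unusual setting. The RNA helicase Nam7 is recruited to terminating ribosomes, and Nmd2 bridges it to other factors of the pathway; decapping and 5′ to 3′ digestion usually follow. A long stretch of RNA after the stop codon is one of the features known to mark a yeast mRNA for this decay, and a DAmP cassette lengthens that stretch. YEL068C encodes a protein of unknown function and its deletion served as the reference.

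Neither the labels nor the table state which dye is the numerator. Of a list of 36 abundantly expressed genes, 12 were measured, and all 12 lay below 0 in the deposited sign in the mean of the NAM7 arrays and in that of the YEL068C arrays. All were below 0 on both NAM7 arrays, against 11 and 12 on the YEL068C arrays. Their medians after turning the sign were 3.29 in the NAM7 pool and 3.36 in the YEL068C pool, where 49.9% of all features of the YEL068C mean lay below 0 before turning. The sign was therefore turned, which makes the values likely RNA over DNA. If the numerator were the other one, each increase below would be a decrease.

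NAM7 itself had no probe value, and neither had NMD2 or YEL068C. The label of the NAM7 pool could instead be looked at through its neighbours on chromosome XIII, since loci close to each other rarely separate in a cross. Within 50 kb of NAM7, 4 genes had values in the NMD2 and YEL068C pools, and all 4 lacked a value on both NAM7 arrays. They were SEC14, the phosphatidylinositol transfer protein gene, at 0.65 kb, the cohesin regulator gene PDS5 at 6.68 kb, UTP15 of the small-subunit processome at 24.39 kb and the kinetochore gene CTF13 at 26.2 kb. SEC14 read 2.03 and 2.23 on the NMD2 arrays and 0.78 and 0.34 on the YEL068C arrays. Away from the 100 kb around NAM7, 8 of 577 such genes lacked a value on both NAM7 arrays.

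**Figure D1:**
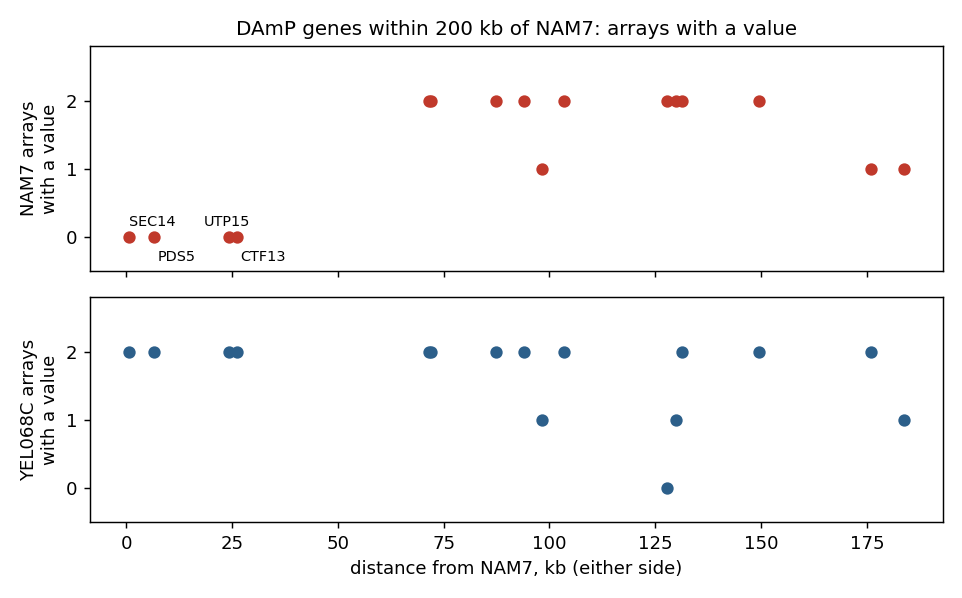
Number of arrays with a value (vertical axis, 0 to 2) for each DAmP gene within 200 kb of NAM7 that was valued in the NMD2 pool, by distance from NAM7 in kb, in the NAM7 pool (upper panel) and the YEL068C pool (lower panel). The 4 genes nearest to NAM7 have no value on either NAM7 array and 2 values in the YEL068C pool, whereas the gene at 0 in the YEL068C panel is TIF34 at 127.85 kb.

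Of the genes between 50 and 100 kb from NAM7 with values on all 4 arrays, SPC24, a kinetochore subunit gene at 71.62 kb, read -1.41 and -1.19 in the NAM7 pool against -1.94 and -2.18 in the YEL068C pool and passed the test (0.76 ± 0.16 SE, limma adjusted p = 0.00104). MCM1, a transcription factor gene at 71.98 kb, was lower at -0.23 and -0.06 against 0.33 and 0.37 (-0.50, adjusted p = 0.0153 in limma). That call was lost without either NAM7 array (-0.54 and -0.45) or without the first YEL068C array (-0.35). ARP9 (0.09) and ECM16 (-0.20) did not pass.

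Extended mRNAs moved both ways in the NAM7 pool. Of the 462 genes, 118 were higher and 110 lower than in the YEL068C pool, and 234 did not pass at an adjusted p of 0.05 in the limma fit that pairs arrays by replicate number. Over all 473 features tested, which include 11 probes without a gene name, 122 were higher (25.8%) and 113 lower (23.9%), together 49.7% of all features. Most changes were moderate. Of the genes that passed, 28 were at least 2-fold higher and 12 at least 2-fold lower, the middle 50% of all genes lay between -0.38 and 0.41, and the extremes were -1.56 and 1.92. The median standard error was 0.151.

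These calls rest on the pairing of the arrays. In the fit without the replicate number 0 features passed (0%), the smallest limma adjusted p was 0.111 and 99 features had an unadjusted p under 0.05, while the median standard error was 0.291. Leaving out the second NAM7 array reduced the calls to 148 features, 91 higher and 57 lower, and without the first NAM7 array 81 were higher and 86 lower. Without centring on the median, 103 were higher and 166 lower, on a scale where the median of all features was -0.11. The values of both NAM7 arrays lay above both YEL068C arrays in 119 features (25.2%) and below both in 110 (23.3%), 48.4% in all. Among the genes that passed, 93 of the 118 higher ones and 82 of the 110 lower ones had such separate arrays.

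The largest increase belonged to PFY1, the gene of profilin, which binds actin monomers. PFY1 read 2.56 and 2.98 in the NAM7 pool against 1.03 and 0.66 in the YEL068C pool, a 3.80-fold rise (1.92 ± 0.19 SE, limma adjusted p = 4.42e-06). MMF1, a small mitochondrial protein gene, read 1.86 and 2.43 against 0.26 and 0.47 (1.78 ± 0.16 SE, limma adjusted p = 2.85e-06). In both genes the lower NAM7 array was more than 1 log2 unit above the higher YEL068C array.

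Several of the other large increases were in genes of metabolism and protein synthesis. IPP1, the cytosolic inorganic pyrophosphatase gene, had 3.30 and 3.14 in the NAM7 pool against 1.74 and 1.46 in the YEL068C pool. PRO3, which encodes the last enzyme of proline synthesis, had 0.21 and 1.70 against -1.06 and -0.11. Its arrays within a pool differed by more than those of IPP1, yet both same-numbered differences were positive (1.27 and 1.81). EFB1, a nucleotide exchange subunit gene of translation elongation factor eEF1, had 3.6 and 3.97 against 2.22 and 2.66, so it was already far above the array median in the YEL068C pool. MRPS18, of the small mitochondrial ribosomal subunit, had 0.52 and 0.00 against -0.59 and -1.52, at or above the array median in the NAM7 pool and below it in the YEL068C pool.

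The remaining genes among the 12 largest increases act in protein modification, transport and RNA metabolism. UBC9, the SUMO-conjugating enzyme gene, read -0.42 and -0.04 in the NAM7 pool against -1.81 and -1.74 in the YEL068C pool. YKT6, a SNARE gene of vesicle fusion, read 1.38 and 0.72 against -0.06 and -0.77, and SHR3, needed to export amino acid permeases from the endoplasmic reticulum, read 2.30 and 2.04 against 1.12 and 0.51. These 3 genes span 584, 603 and 633 nucleotides. DPM1, the dolichol phosphate mannose synthase gene, had 1.74 and 2.04 against 0.52 and 0.66. PTI1, a subunit gene of the cleavage and polyadenylation factor, had 0.21 and 0.12 against -1.22 and -1.13. RNA1, the GTPase-activating protein gene of the Ran cycle, had 1.64 and 1.42 against 0.53 and -0.07. Over these 12 genes the change was 1.30 to 1.92 with standard errors of 0.145 to 0.187, adjusted p-values ran from 2.85e-06 to 5.23e-05, and all 12 coding lengths lay between 438 and 1278 nucleotides. Coding length is given throughout as the gene span, which includes any intron.

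The largest decrease was that of OLE1, the fatty acid desaturase gene. OLE1 read 1.95 and 2.24 in the NAM7 pool against 3.37 and 3.95 in the YEL068C pool, 2.96-fold lower (-1.56 ± 0.15 SE, limma adjusted p = 4.42e-06). SUB2, a DEAD-box ATPase gene of splicing and mRNA export, read 1.52 and 2.36 against 2.88 and 3.84, 2.68-fold lower. Both stayed above the array median in the NAM7 pool.

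Genes of ribosome production and translation initiation were among the other large decreases. FHL1, a regulator of ribosomal protein genes, had -0.98 and -1.66 in the NAM7 pool against 0.34 and -0.54 in the YEL068C pool. The small-subunit processome genes SOF1, BFR2 and UTP10 changed by -1.12, -1.04 and -1.01. SUI3 and SUI2, the beta and alpha subunit genes of initiation factor eIF2, had 3.10 and 2.96 against 4.18 and 3.93, and 1.93 and 2.02 against 2.7 and 3.27. RPC17, a subunit gene of RNA polymerase III, was at -0.59 and -1.06 against 0.59 and 0.15, so all 4 of its arrays lay on opposite sides of the median by pool.

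A pair of Arp2/3 complex genes and a condensin gene complete this group. ARC35 read 2.90 and 2.09 in the NAM7 pool against 3.94 and 3.42 in the YEL068C pool, and ARP2 read 0.90 and 0.98 against 2.0 and 2.22. The Arp2/3 complex nucleates branched actin filaments. PFY1, the gene of the largest increase, encodes profilin, which binds actin monomers. BRN1, of condensin, read -1.88 and -1.86 against -0.83 and -0.51. Over these 12 genes the change was -1.56 to -1.01 with adjusted p-values of 4.42e-06 to 0.00013, and coding lengths ran from 486 to 5310 nucleotides, 7 of the 12 at or under 1500. All 24 genes kept their direction in every alternative analysis. Where no single array was left out, they passed in each except the fit without the replicate number, where none passed. The 24 were chosen from these same arrays as the largest passing changes with separate arrays, which favours that outcome. With 1 array left out in turn, the smallest increase among them was 0.99 and the smallest decrease was -0.80.

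**Figure D2:**
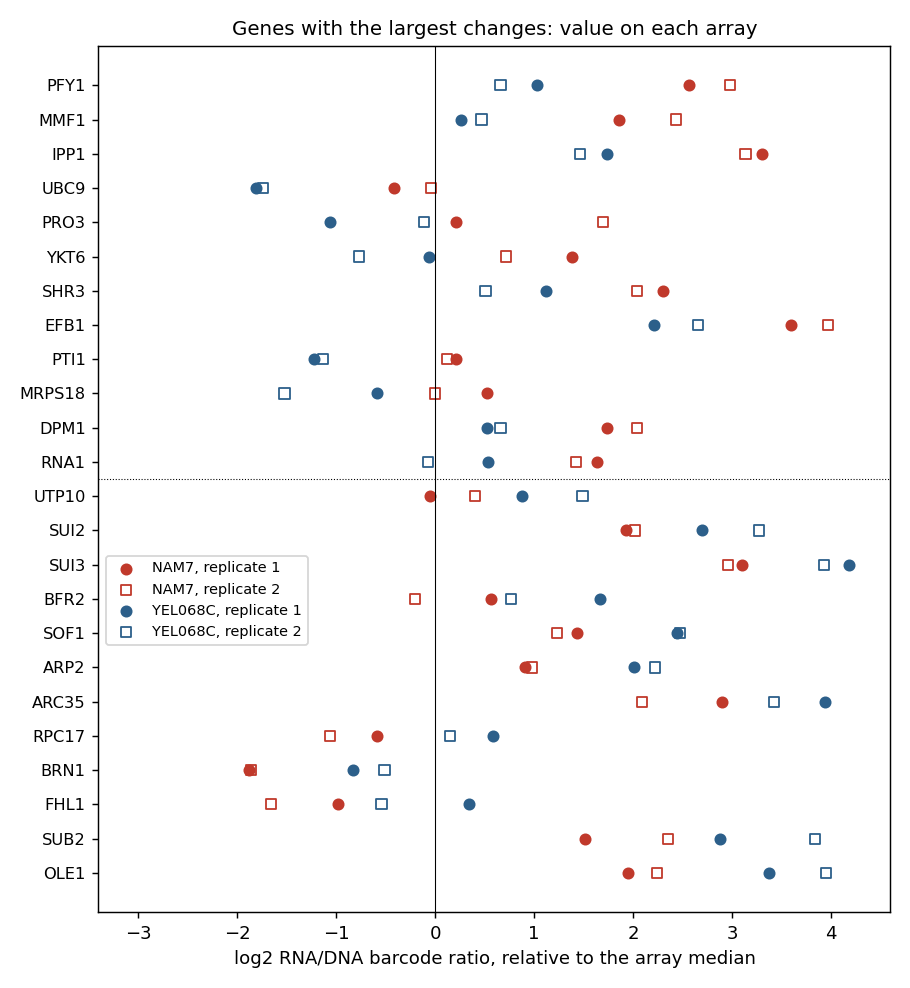
Value on each array (log2 RNA/DNA barcode ratio relative to the array median, horizontal axis) of the 12 genes with the largest increases (above the dotted line) and the 12 with the largest decreases (below it), NAM7 arrays in red and YEL068C arrays in blue, filled circles for replicate 1 and open squares for replicate 2. Only genes whose red symbols both lie on 1 side of both blue symbols were eligible, so that separation follows from the choice. The genes run from PFY1 at 1.92 at the top to OLE1 at -1.56 at the bottom.

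The replicate number mattered because arrays of one number shared deviations across pools. Over the genes, array values correlated at 0.92 between the first NAM7 and the first YEL068C array and at 0.91 between the second arrays, against 0.83 for each pair of unlike numbers. The median gap between the arrays of a pool was 0.38 in the NAM7 pool and 0.39 in the YEL068C pool, whereas the difference between pools in one set of same-numbered arrays departed from that in the other by a median of 0.18. The 2 differences had the same sign in 387 of the 462 genes (83.8%). Across genes they correlated at 0.88 (Pearson) and 0.87 (Spearman). This describes these arrays, and genes are not independent replicates.

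PMA1, the plasma membrane proton pump gene, shows what the pairing does. It read 0.58 and 4.95 in the NAM7 pool against -0.57 and 3.52 in the YEL068C pool, so the pools overlap, but both same-numbered differences were positive at 1.15 and 1.43 (1.29 ± 0.15 SE, limma adjusted p = 1.3e-05). The widest gaps between same-numbered differences were in 5 other genes. RMP1, a subunit gene of RNase MRP, differed by 1.32 in the first set and -0.21 in the second and did not pass (adjusted p = 0.0835 in limma, 1 NMD2 array without a value). STT3, the catalytic subunit gene of oligosaccharyltransferase, differed by -0.52 and 0.58. TRS120, a gene of the TRAPP tethering complex, passed at -0.97 with -0.52 and -1.43. ESP1, the separase gene, passed at -0.64 with -0.23 and -1.05, with 1 NMD2 array without a value, and was no longer called without the second array of either pool (-0.23 each). SEC53, the phosphomannomutase gene, passed at 0.81 with 0.35 and 1.27 and was likewise lost without the second NAM7 array (0.56) or the second YEL068C array (0.37).

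**Figure D3:**
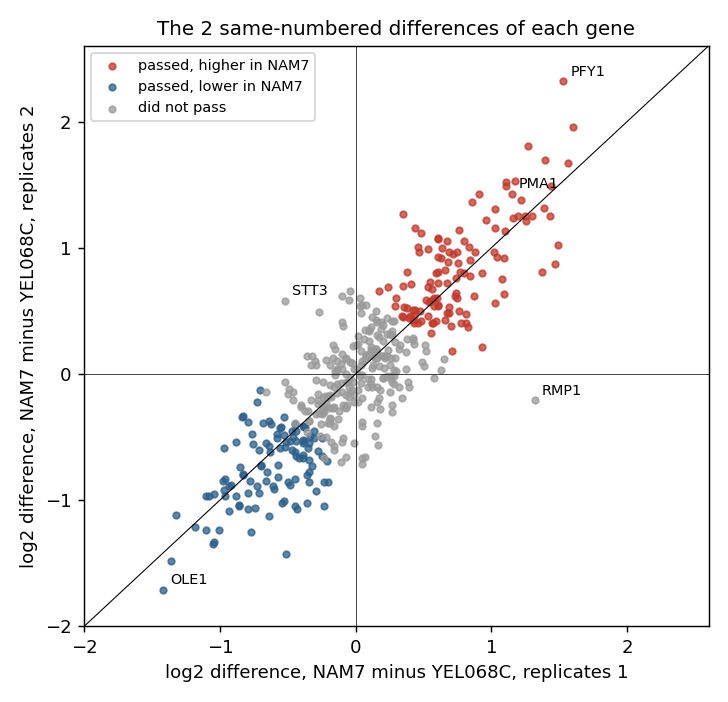
Log2 difference NAM7 minus YEL068C between the first arrays (horizontal axis) and between the second arrays (vertical axis) for each of the 462 genes, red where the gene passed as higher, blue where it passed as lower and grey where it did not pass, with the diagonal marking equal differences. All 228 genes that passed have the same sign in both sets, which the paired test itself favours. RMP1 and STT3 lie far from the diagonal.

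The study is known to have asked about the length of the open reading frame. Change and coding length, taken as gene span, were set beside each other. Increases were mainly in short genes and decreases mainly in long ones. In the class above 500 and up to 1000 nucleotides, 59 of 114 rose and 6 fell, with a median change of 0.42. In the next class, up to 1500 nucleotides, 42 of 115 rose and 7 fell (median 0.27). The balance turned in the class up to 2000 nucleotides, where 10 rose and 18 fell of 83 (median -0.08). In the class above 2000 and up to 3000 nucleotides, 2 of 81 rose and 30 fell (median -0.29). Of 59 genes over 3000 nucleotides 0 rose and 46 fell, 78.0% of them (median -0.58). The relation was not particular to the NAM7 pool. Against the same YEL068C arrays, the NMD2 pool had medians of 0.46, 0.255, -0.09, -0.30 and -0.58 in these classes, from short to long.

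From 500 nucleotides upward the class medians of the NAM7 pool kept their order in each set of same-numbered arrays. They were 0.40 and 0.46 between 500 and 1000 nucleotides and -0.45 and -0.72 over 3000. Across the 462 genes the change and the coding length had a Spearman rho of -0.62, with -0.58 in the first set and -0.61 in the second. It is given as a description, because all genes share the same arrays. Levels themselves followed length only weakly, with a rho of -0.13 in the NAM7 pool and 0.13 in the YEL068C pool. Over 3000 nucleotides the median level was -0.19 in the NAM7 pool and 0.37 in the YEL068C pool. The gap between the second and the first array of a pool also went with length (rho 0.17 in the NAM7 pool and 0.29 in the YEL068C pool), and its part in the relation was not tested.

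**Figure D4:**
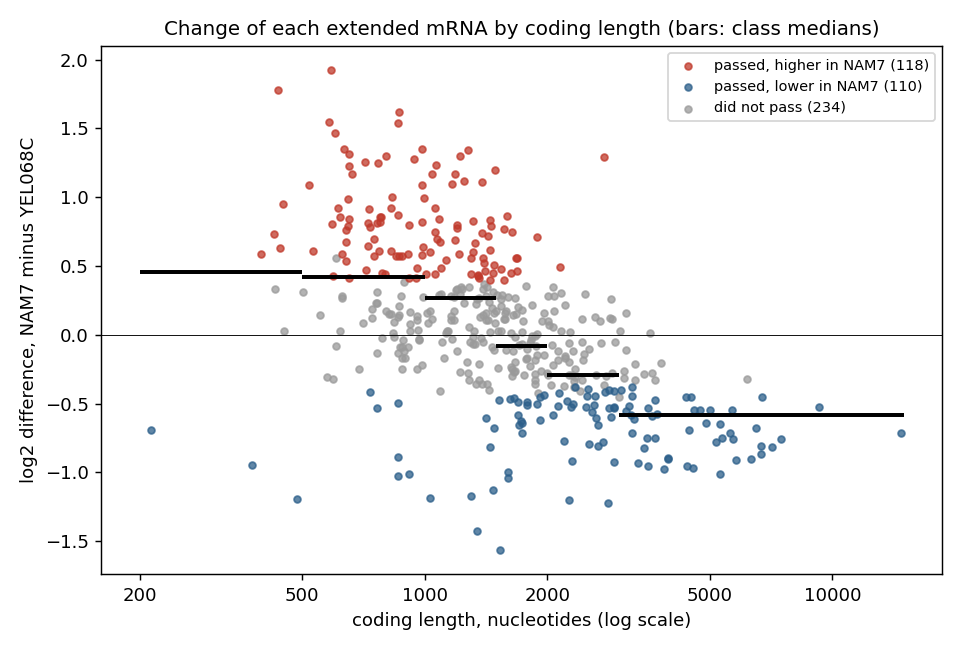
Log2 difference NAM7 minus YEL068C (vertical axis) against coding length in nucleotides (horizontal axis, log scale) for the 462 genes, coloured by whether they passed as higher (red, 118), lower (blue, 110) or not (grey, 234), with black bars at the median of each length class. The class medians are 0.42 between 500 and 1000 nucleotides and -0.58 over 3000 nucleotides.

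The longest gene was MDN1, listed as REA1, which encodes a large ATPase of 60S assembly. REA1 has 14733 nucleotides and read 0.37 and 0.14 in the NAM7 pool against 1.07 and 0.87 in the YEL068C pool (-0.71 ± 0.14 SE, limma adjusted p = 0.000847). IRA1, a Ras GTPase-activating protein gene of 9279 nucleotides, changed by -0.53, a call lost without the second NAM7 array (-0.10) or the second YEL068C array (-0.46). UTP20 of the small-subunit processome (7482 nucleotides) changed by -0.76, and the checkpoint kinase gene MEC1 (7107 nucleotides) by -0.81.

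The shortest genes were mixed. RPB10, shared by the nuclear RNA polymerases and 213 nucleotides long, was lower at 4.96 and 4.71 in the NAM7 pool against 5.32 and 5.73 in the YEL068C pool (-0.69), a call lost without the second array of the NAM7 pool (-0.56) or of the YEL068C pool (-0.33). ACP1, the mitochondrial acyl carrier protein gene of 378 nucleotides, read -2.16 and -2.31 against -1.19 and -1.39 (-0.94 ± 0.17 SE, limma adjusted p = 0.000366). The histone gene HTB1 (396 nucleotides) was higher by 0.59 and YAE1 (426 nucleotides) by 0.73, and neither passed without the second YEL068C array (0.34 and 0.47). HTB1 was also lost without the second NAM7 array (0.52). Of the 10 genes up to 500 nucleotides, 5 rose and 3 fell.

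Exceptions to the length pattern were few. At up to 1500 nucleotides 16 of 239 genes fell, among them ARC35, ARP2, SUB2, SUI2, SUI3, SOF1, RPC17, RPB10, ACP1 and MCM1. The other 6 were BRL1, CDC1, PRE6, RIB7, RPL17A and YRA1, named here after their values were seen. YRA1, whose product works with Sub2 in mRNA export, read 2.16 and 2.06 in the NAM7 pool against 2.98 and 2.87 in the YEL068C pool. Over 2000 nucleotides only 2 of 140 genes rose. They were PMA1 and QNS1, the NAD synthetase gene, also named after its value was seen (0.50, fitted without NMD2 values).

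Among the 5 measured genes of the list for translation termination and mRNA decay, 1 rose, 2 fell and 2 did not pass. The list is broader than its name, since it also holds NRD1 and PAP1. SUP45, the release factor eRF1 gene, read 2.73 and 3.02 in the NAM7 pool against 2.05 on both YEL068C arrays (0.83 ± 0.15 SE). DCP2, which encodes the decapping enzyme that acts in this decay, read -0.13 and -0.30 against 0.75 and 0.67 (-0.93 ± 0.14 SE, limma adjusted p = 0.00013). NRD1, of nuclear termination and surveillance of short transcripts, changed by -0.71. PAB1, the poly(A)-binding protein gene, differed by 0.02 and PAP1, the poly(A) polymerase gene, by -0.07.

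Each list is set beside all 462 genes, of which 118 rose and 110 fell with a median change of 0.02. Of 13 genes of RNA polymerases I, II and III, 2 rose and 7 fell, with a median change of -0.43 and a median coding length of 1965 nucleotides. RPC17 and RPA190, the largest subunit of polymerase I (-0.55), were lower and RPB5, a shared subunit, was higher (0.79). The RPA190 call was lost without either NAM7 array or the first YEL068C array (-0.56, -0.53 and -0.48). Of 27 genes of polymerase II initiation, Mediator and chromatin, 3 rose and 7 fell, including the DNA-binding factor ABF1 (-0.77, not called without the second NAM7 array, -0.54) and the ATPase MOT1 (-0.71) as lower and the TFIIH subunit SSL1 (0.74) as higher.

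Of 21 pre-mRNA splicing genes 6 rose and 3 fell (median 0.03). AAR2, of U5 assembly, was higher by 1.24 and HSH49, of U2, by 0.68, while the helicase genes PRP16 and BRR2 changed by -0.71 and -0.68. BRR2 was not called without the second NAM7 array (-0.51). Of 23 genes of 3′ end processing, the exosome and tRNA processing 3 rose, among them PTI1 and the tRNA endonuclease gene SEN34 (0.93), and 6 fell, among them the cleavage factor gene HRP1 (-0.995) and the helicase gene SEN1 (-0.81). The list of the nuclear pore, the Ran cycle and mRNA export had 3 higher and 8 lower of 20. RNA1 rose most there and SUB2 fell most, and the nucleoporin gene NUP145 changed by -0.90.

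Of 30 small-subunit processome and 40S assembly genes 4 rose and 13 fell (median -0.27). Of the 30, 12 had both NAM7 arrays below both YEL068C arrays, against 23.3% of all features. Of 30 genes of 60S assembly 4 rose and 6 fell (median -0.11), with RIA1, a GTPase of late 60S maturation, at -0.93, URB1 at -0.64 and SDO1 at 0.70. The URB1 call was lost without the second NAM7 array (-0.53). Of 13 aminoacyl-tRNA synthetase genes 4 rose and 0 fell: TYS1 (1.17), HTS1 (0.75), SES1 (0.56) and DPS1 (0.56). The 13 had a median change of 0.28 and a median coding length of 2004 nucleotides. The 4 that rose were shorter than that median, at 1185 (TYS1), 1641 (HTS1), 1389 (SES1) and 1674 (DPS1) nucleotides. TYS1 for tyrosine had 2.05 and 2.32 in the NAM7 pool against 1.14 and 0.89 in the YEL068C pool. SES1 was not called without the second array of the NAM7 pool (0.47) or the YEL068C pool (0.42), and DPS1 was not called without the second NAM7 array (0.53). In a subset taken after the values were seen, none of the 7 synthetase genes over 2000 nucleotides passed (median 0.11). Of the 6 measured genes in the list of initiation and elongation factors, SUI2 and SUI3 were lower. DYS1 of that list, the deoxyhypusine synthase gene for eIF5A, was higher by 1.09. The elongation factor gene EFB1 (1.35) is not in the list and not counted there. The list had a median change of -0.16 and a median coding length of 1123 nucleotides.

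Of 16 genes of glycolysis, the proton pump and other central metabolism 10 rose and 0 fell (median 0.49). PGK1, the phosphoglycerate kinase gene, read 5.11 and 5.78 in the NAM7 pool against 4.005 and 4.65 in the YEL068C pool, a difference of 1.11 at a level far above the array median. CDC8, the thymidylate kinase gene, read 0.08 and -0.35 against -1.12 and -1.60. Of the 12 abundant mRNAs used for the direction of the ratio 7 rose and 2 fell (median 0.51).

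Mitochondrial import, iron-sulfur cluster and heme genes had 9 of 15 higher and 1 lower, with a median of 0.59 and a median coding length of 993 nucleotides. They included the ferredoxin gene YAH1, with 1.37 and 1.39 in the NAM7 pool against 0.41 and 0.17 in the YEL068C pool, the import motor gene PAM16 (0.95) and HEM3 of heme synthesis (0.82). ACP1 was the one that fell. Glycolipid anchor, glycosylation and sugar nucleotide genes had 13 of 25 higher and 0 lower (median 0.41), at a median coding length of 1251 nucleotides. Of the 25, 12 had separate arrays above the YEL068C pool, against 25.2% of all features. After DPM1 came PMI40, the mannose-6-phosphate isomerase gene (1.11), KRE9 of cell wall glucan (1.005) and SWP1 of oligosaccharyltransferase (0.87).

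Lipid and sterol genes moved in both directions, 11 of 27 up and 6 down. PIS1, the phosphatidylinositol synthase gene, read 1.25 and 1.87 in the NAM7 pool against 0.22 and 0.56 in the YEL068C pool. KEI1, a component of inositolphosphorylceramide synthase, read -2.26 and -1.06 against -3.50 and -2.31, a difference of 1.25 with arrays that barely separate. Of the 5 measured enzymes that use oxygen, 3 rose: the squalene epoxidase gene ERG1 (1.20), the coproporphyrinogen oxidase gene HEM13 (1.09) and the lanosterol demethylase gene ERG11 (0.86). OLE1, which also uses oxygen, fell, so the largest decrease of all stands in a list with a median of 0.86. The median coding length of that list was 1533 nucleotides. In a subset taken after the values were seen, 7 of 10 mevalonate and ergosterol enzyme genes rose and 0 fell (median 0.58).

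Of 26 proteasome, ubiquitin and SUMO genes 6 rose and 4 fell. UBC9 and AOS1, a subunit of the SUMO-activating enzyme (1.17), act in one pathway and both rose, as did the ubiquitin-conjugating enzyme gene UBC1 (0.98), while MET30 of a ubiquitin ligase changed by -0.62 and was not called without the first YEL068C array (-0.44). Of 6 chaperone genes 3 rose, of which PAM16 passed in each leave-one-out fit. TCP1 was lost without the second array of the NAM7 pool (0.28) or the YEL068C pool (0.30), and SIS1 without the first array of either (0.13 and 0.36). Traffic genes of the endoplasmic reticulum, vesicle coats and tethers split evenly, with 7 of 27 higher and 7 lower. The higher ones included YKT6 and SEC17 (0.99), whose product helps to take SNARE complexes apart. The lower ones included TRS120.

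DNA replication and checkpoint genes had 7 of 30 higher and 7 lower. POL30, the sliding clamp gene of 777 nucleotides, read 0.61 and 0.70 in the NAM7 pool against -0.13 and -0.27 in the YEL068C pool, and POL1 and POL2, catalytic subunits of DNA polymerases alpha and epsilon, changed by -0.95 and -0.86. Chromosome segregation genes had 2 of 27 higher and 11 lower (median -0.24). STU1 (-0.96) and STU2 (-0.81) bind microtubules and MPS1 (-0.92) is a spindle checkpoint kinase, and STU1 and MPS1 each lacked a value on 1 NMD2 array. Actin, polarity, septin and mitotic exit genes had 3 of 17 higher and 10 lower, with a median of -0.46 and a median coding length of 1563 nucleotides, although PFY1 is one of the 3. AVO1, of the TORC2 complex that acts on actin polarity, read -3.29 and -2.72 against -2.43 and -1.67. The 62 measured genes in none of the lists had 17 higher and 12 lower.

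**Figure D5:**
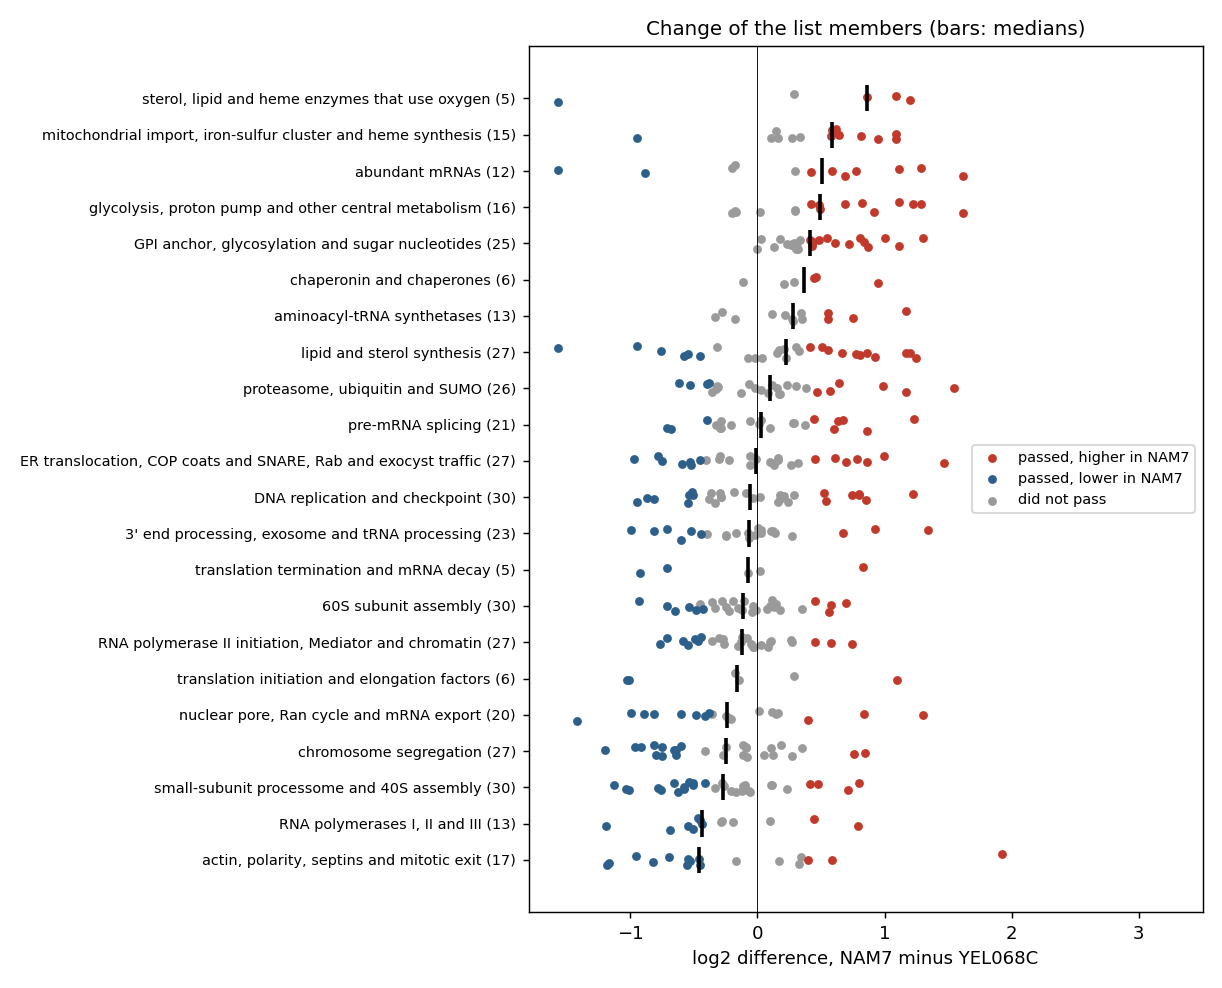
Log2 difference NAM7 minus YEL068C (horizontal axis) of each measured gene of 22 gene lists (vertical axis, number measured in brackets), red where the gene passed as higher, blue where it passed as lower and grey where it did not pass, with a black bar at the list median; vertical scatter within a list has no meaning. Medians run from 0.86 in the enzymes that use oxygen to -0.46 in the actin and polarity list, and most lists hold changes both ways.

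Some extended mRNAs had values in only 1 of both pools and stand outside the test. A value on both NAM7 arrays and on neither YEL068C array was found for 40 genes, and the reverse for 9. Of the 40, 26 (65.0%) had coding lengths up to 1000 nucleotides, against 124 of the 462 genes with all 4 values (26.8%), and 30 were also valued on both NMD2 arrays. The highest was RPS15, a ribosomal protein gene, at 3.73 and 4.45, which had no value on either NMD2 array. RPS15 was followed by NOP56 (3.20 and 3.10, valued on 1 NMD2 array) of box C/D RNA-protein particles. TIF6 (3.34 and 2.93) of 60S assembly and the chaperonin gene CCT4 (1.97 and 2.56) came next. GCD11, the gamma subunit gene of eIF2 (2.01 and 2.47), was also among them, as were SEC61 (2.28 and 2.13) of the translocation channel, TIM17 (2.43 and 1.94) of mitochondrial import and NOP15 (2.0 and 2.02). Of the 9 genes with the reverse pattern, 4 were the neighbours of NAM7 given above. The calmodulin gene CMD1 was the highest of the 9 at 1.51 and 1.86, and it too had no value on either NMD2 array. No source used here gives the rule by which values were removed from the table, so no fold is given for these genes.

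The NAM7 and NMD2 pools were compared directly on the 444 features with values on all 6 arrays. In limma 0 features passed (0%), the smallest adjusted p was 0.0564 and 55 had an unadjusted p under 0.05, with a median standard error of 0.143. A missed threshold does not show that the pools are alike, and 5 features passed without the second NAM7 array and 3 without either YEL068C array. Among 211 genes that passed against the YEL068C pool and had NMD2 values, the NAM7 minus NMD2 difference had a median size of 0.14 and a largest size of 0.60.

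The smallest p-values of that comparison belonged to genes little changed against the YEL068C pool, apart from DYS1. RCL1, of 18S rRNA processing, read 1.77 and 2.19 in the NAM7 pool against 0.90 and 1.31 in the NMD2 pool (0.78 ± 0.14 SE, adjusted p = 0.0564 in limma). MIF2 and NNF1, kinetochore genes, differed by 0.84 and 0.67, and NSE3 of the Smc5-Smc6 complex by -0.61. DYS1 was at 1.75 and 1.45 in the NAM7 pool, at 2.28 and 1.92 in the NMD2 pool, and at 0.72 and 0.29 in the YEL068C pool. In these 5 genes the 2 NAM7 arrays lay on one side of both NMD2 arrays, which the choice by smallest p-value favours. The share of all features with such separate arrays was not computed.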

How the data were processed

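Per the labels' protocols, barcodes amplified from RNA (Cy3) and genomic DNA (Cy5) were hybridised together. The authors deposited 1 table of processed values, read here as log2 ratios, for 15743 probes. The table states no numerator and no base of the logarithm; base 2 is inferred from the range of the values, and folds depend on it. No source used here gives its scaling. A value was present for 666 and 792 probes on the NAM7 arrays and 660 and 749 on the YEL068C arrays. The series text restricts its reading to the up tags, which the files used here do not mark, so all 563 probes valued on the 4 arrays were used. Scanner intensities and background were not analysed here, and the number of arrays limits the precision.

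A platform table named 1 gene for 827 of 843 valued probes, several for 0 and none for 16. All 827 symbols matched RefSeq (assembly R64), which gave coding length (gene span with any intron, a multiple of 3 in 448 of 462 genes) and neighbours. Probes were averaged per gene; the probes of 90 genes with 2 differed by a median of 0.06. The sign was turned and each array centred on its median over the features.

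The test was limma 3.58.1 in R 4.3.3 (lmFit, eBayes, two-sided, Benjamini-Hochberg 0.05 over 473 features) on all 6 arrays with 1 term per pool and the replicate number as a block, which leaves 2 residual degrees of freedom; 29 features lacked an NMD2 value. For NAM7 against NMD2, 444 features were recentred. Replicate numbers come from the titles, and same-numbered arrays deviated together (correlations 0.89, 0.89 and 0.85 between pools). The code was tested on simulated data.

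Genes were named by rule: 12 largest increases and 12 largest decreases among passing genes with separate arrays, up to 4 passing genes per list (or the 2 of smallest p), the 4 longest and 4 shortest, genes within 100 kb of NAM7, measured decay genes, the 5 widest gaps between sets, up to 8 genes valued in 1 pool only and the 5 smallest p-values against NMD2. The genes, the 22 lists (1116 entries) and the rules were chosen with earlier results of these data known. Alternatives changed the block, centring, quantile normalization, missing values, arrays fitted, probes per gene and eBayes options, and left out each array.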

Additional observations from a re-analysis of the deposited data

How the results depend on the processing

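Without the replicate number as a block, 0 features passed against the YEL068C pool (0 higher, 0 lower), and 90 named genes lost their call with unchanged values, since only the error grew. With the pairing kept, the calls numbered between 148 and 264 with 1 array left out (81 to 133 higher, 57 to 131 lower), and 141 of the 228 genes were kept without the second NAM7 array, the fewest. No centring, quantile normalization, other rules on missing values, the 4 arrays alone, 1 probe per gene and trended robust eBayes gave 223 to 305 calls. The Spearman correlation of the change with coding length was -0.62 to -0.58 with 1 array left out, at -0.59 without the second NAM7 array and -0.58 without the second YEL068C array. NAM7 against NMD2 gave 6 calls without centring (4 higher, 2 lower), 3 with quantile normalization, 10 (7 and 3) with at least 1 value per pool, 3 with 1 probe per gene, 4 (3 and 1) with trended robust eBayes, and 0 to 5 with 1 array left out, all of them higher. Quantile normalization also ended the calls of HTB1, IRA1, SES1, SIS1 and TCP1, no centring those of SIS1 and TCP1, 1 probe per gene those of IRA1, SIS1 and TCP1, and 6 valued arrays that of SIS1. Of the genes that passed, SAH1, named after its value was seen, turned sign after quantile normalization (0.42 in the main analysis, -0.17 there, adjusted p = 0.529 in limma). Among the genes named by rule, signs turned in those that did not pass: ARP9 at -0.05 without centring and -0.0065 after quantile normalization, PAB1 at -0.12 and STT3 at -0.11 without centring, STT3 at -0.056 after quantile normalization and PAB1 at -0.0050 with at least 1 value per pool. With 1 array left out, MIF2 spanned -0.47 to 0.24, NNF1 -0.18 to 0.019, RCL1 -0.22 to 0.11, PAB1 -0.061 to 0.10, RMP1 -0.21 to 1.32 and STT3 -0.54 to 0.60. The cause was not tested. Signal over background was not analysed, and 2 technical arrays of 1 cross per deletion leave the spread between crosses unmeasured.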

Other observations

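Over all 462 genes 118 rose and 110 fell, with a median change of 0.02. By mean level over the 4 arrays, 50 of the 154 highest genes rose and 29 fell, against 31 and 41 of the 154 lowest. On chromosome XIII, which holds NAM7, 10 of 27 measured genes rose and 2 fell, with a median change of 0.10. Like shares rose on other chromosomes, with 11 of 27 higher and 9 lower on X and 6 of 16 higher and 3 lower on VIII. Of 14 genes whose span is not a multiple of 3, 6 rose and 1 fell (median 0.28). In the 10 genes up to 500 nucleotides the median change was 0.46, and leaving them out gave a rho with coding length of -0.64 over 452 genes. These values were looked at after the main results and were not tested.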
